A study of Homo sapiens with 12 samples.

Results

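The genes described here encode the parts of the mitochondrial respiratory chain and ATP synthase that are made from nuclear DNA. They were chosen as the protein-coding rows whose symbol begins with NDUF, UQCR, COX4 to COX8 or ATP5, or is CYC1 or SDHA to SDHD, which gave 98 of 57704 genes. By complex these were 46 genes of complex I, 4 of complex II, 10 of complex III, 19 of complex IV and 19 of complex V. The 98 comprise 76 subunits, 10 assembly factors and related proteins, 10 tissue isoforms and copies, and a pair of read-through loci. Symbols are printed as in the deposited table, which uses the older ATP5 names (ATP5A1 is now ATP5F1A, ATP5L is now ATP5MG). NDUFA4 was placed in complex IV, where its protein is now known to reside, and ATP5SL, now DMAC2, among the complex I assembly factors.

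HEK293, an established human embryonic kidney line (CRL-1573), was used as a stable line expressing a DARP-EGFP reporter that carries an endogenous intronic sequence. From 1 culture, 6 wells were transfected with pooled siRNAs against SUPT4H1 and 6 with scrambled siRNAs, each at 100 nM, and RNA was taken from 1000000 cells at 72 hours. All 12 libraries carry the reporter, no untransfected cells were analysed here, and p-values cover variation among these wells only. SUPT4H1 encodes SPT4, the small subunit of the transcription elongation factor DSIF, and the series asks how its loss affects transcription of the reporter.

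In the respiratory chain, complex I (NADH dehydrogenase) and complex II (succinate dehydrogenase) pass electrons to coenzyme Q. Complex III passes them through cytochrome c to complex IV, which reduces oxygen, and complex V uses the proton gradient that I, III and IV build to make ATP. Complex II is encoded wholly in the nucleus, whereas the others also hold subunits made inside the mitochondrion, so each of these combines products of both genomes. Nuclear promoters of the chain often hold sites for NRF1, GABPA (NRF2) and YY1.

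Libraries held between 7337033 and 20269171 counts of endogenous genes with scrambled siRNA and between 6591194 and 11366971 with SUPT4H1 siRNA, and RNA integrity numbers were 9.6 to 10. SUPT4H1 mRNA, the target, measured 184 ± 8.95 CPM (counts per 1000000 endogenous counts, TMM-scaled, SD, n = 6) in scrambled wells. In wells with its siRNAs it measured 20.8 ± 1.79 CPM (SD, n = 6), 8.81-fold lower. KRT8, KRT18, NEFL, VIM and CDH2, all known from HEK293 cells, had group means of 54.0 CPM or more, whereas PTPRC (leukocytes), CDH5 (endothelium), HBB (erythroid cells) and MYH7 and MYL2 (muscle) had 0 counts. The 5 epithelial markers summed to 203 to 251 CPM in scrambled libraries and to 105 to 182 CPM in SUPT4H1 libraries. The 3 neurofilament markers summed to 1192 to 1718 and to 870 to 1010 CPM, and VIM and CDH2 (mesenchymal) to 393 to 468.5 and to 506.5 to 582 CPM. These 3 sets did not overlap between groups, and their part in the results was not tested. One library stood apart, SUPT4H1 replicate 6, at 38.4 on the second principal component, where the other SUPT4H1 libraries lay between −19.5 and −3.92. The median deviation of the tested genes of the chain from their scrambled mean was −0.47 (log2) in it and −0.08 to 0.07 in the other 5, so counts by complex are given with and without it.

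Relative to all mRNA, the nuclear respiratory chain changed in places and by small amounts, with more genes falling than rising. Of the 98 genes, 88 passed the filter on low counts and were tested. Among these 88, 11 rose (12.5%) and 25 fell (28.4%) at an adjusted p under 0.05 (edgeR quasi-likelihood test, Benjamini-Hochberg over 13820 genes). Over all genes tested, 20.3% rose and 19.8% fell. The median relative log2 fold change (SUPT4H1 siRNA minus scrambled siRNA) was −0.10 for the 88 and 0.00 for all genes, and 57 of the 88 values were below 0. Values ran from −0.71 to 0.90, so none reached a doubling or a halving.

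These genes are abundant, with a median of 241 CPM in the scrambled group against 18.6 CPM for all genes tested. Abundant genes have more counts behind each value, so genes within the range of level of most chain genes were also examined. Between 20.8 and 1218 CPM, 23.4% of 6398 genes rose and 24.1% fell, and of the 78 chain genes in that range 10.3% rose and 30.8% fell. Levels were not matched within that range. The 90th percentile of all genes tested was 123 CPM, below the median of the chain. In that range 1.75% of all genes and 0% of the chain genes changed by more than 1 on the log2 scale. The median coefficient of variation between libraries, as edgeR estimates it, was 0.120 for the chain and 0.115 for all genes of that range.

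In 16 of the 88 tested genes (18.2%) no scrambled library fell within the range of the SUPT4H1 libraries or the reverse, which held for 20.2% of all genes tested. Of the 16, 5 were higher and 11 lower with SUPT4H1 siRNA. With RNA integrity as a covariate, 15 of the 88 fell (17.0%), a share near the 16.7% of all genes, and 11 rose (12.5%, against 16.8% of all genes). The larger share of falls was thus not seen under that setting. Against a minimum change of 1.5-fold, 0 rose and 0 fell by edgeR's test (2 and 1 at an unadjusted p under 0.05), while 2.16% of all genes rose and 1.71% fell.

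**Figure D1:**
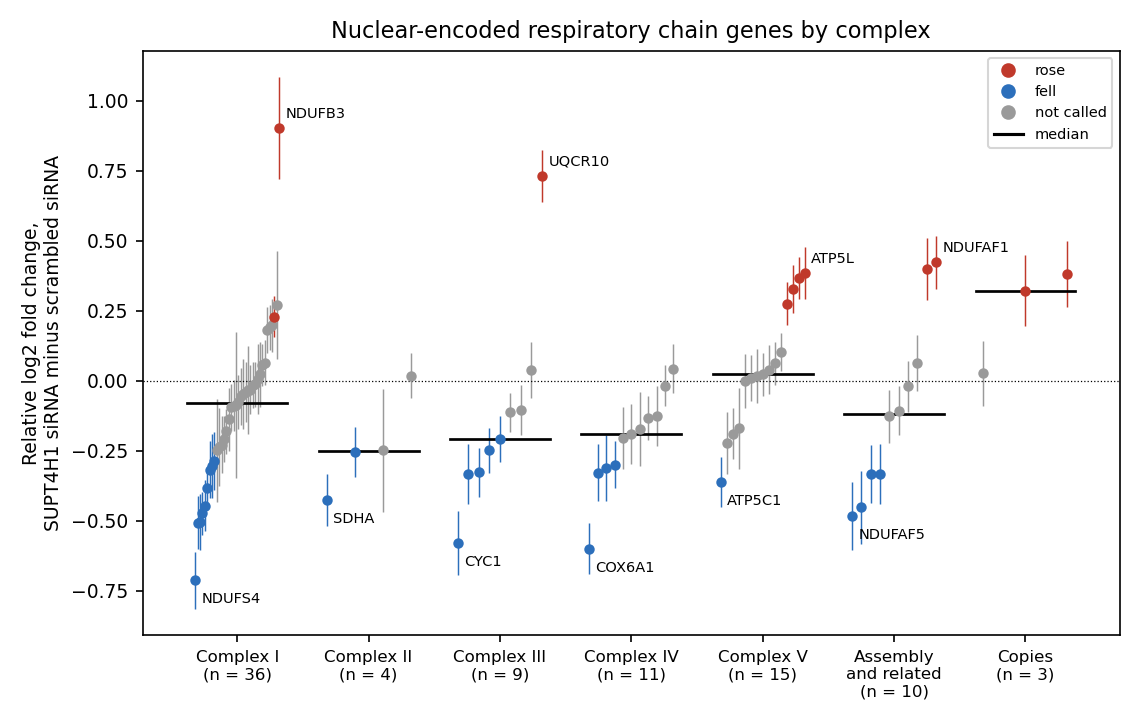
Relative log2 fold change (y axis, SUPT4H1 siRNA minus scrambled siRNA) of each tested gene, grouped by complex on the x axis; bars are standard errors, colours mark calls at an adjusted p under 0.05 and black lines are medians. Complex V is the complex with the most risen subunits (4 of 15, 26.7%, beside 20.3% of all genes tested). The medians of complexes I to IV lie between −0.25 and −0.08.

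Subunit calls are given side by side for the complexes, and differences between complexes were not tested. With all 12 libraries, 20.3% of all genes tested rose and 19.8% fell. Complex I had 2 rises and 9 falls among 36 tested subunits, with a median log2 fold change of −0.08, which was −0.14 without scrambled replicate 2 and −0.05 without scrambled replicate 1. Complex II had 0 rises (0 also at an unadjusted p under 0.05 and by DESeq2) and 2 falls among 4 (median −0.25). Complex III had 1 rise and 5 falls among 9 (median −0.21). Complex IV had 0 rises, again 0 unadjusted and by DESeq2, and 4 falls among 11 (median −0.19). Complex V had 4 rises and 1 fall among 15, with a median of 0.02. That median was −0.01 without scrambled replicate 2 and 0.06 without scrambled replicate 1, so its sign is not fixed. Without SUPT4H1 replicate 6 the rises and falls were 3 and 11 of 37 for complex I, 0 and 2 for II, 1 and 5 for III, 0 and 4 for IV and 4 and 1 for V. Over all 14043 genes tested without that library, 19.4% rose and 22.6% fell.

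The 4 genes with the largest relative changes were NDUFB3, UQCR10, NDUFS4 and COX6A1, and their promoters are printed because each stands for another combination of direction and motif. Each run holds 280 bases from RefSeq (GRCh38.p14), 250 before the annotated start and 30 after it, all on the plus strand, with motif matches in capitals. UQCR10 lies at chr22:29767119-29767398, NDUFB3 at chr2:201071751-201072030, NDUFS4 at chr5:53560389-53560668 and COX6A1 at chr12:120437863-120438142.
UQCR10: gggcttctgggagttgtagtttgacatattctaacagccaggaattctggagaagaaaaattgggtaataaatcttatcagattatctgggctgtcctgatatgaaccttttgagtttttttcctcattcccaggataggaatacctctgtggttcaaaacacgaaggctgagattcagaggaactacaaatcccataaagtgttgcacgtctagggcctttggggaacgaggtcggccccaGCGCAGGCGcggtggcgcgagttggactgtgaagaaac
NDUFB3: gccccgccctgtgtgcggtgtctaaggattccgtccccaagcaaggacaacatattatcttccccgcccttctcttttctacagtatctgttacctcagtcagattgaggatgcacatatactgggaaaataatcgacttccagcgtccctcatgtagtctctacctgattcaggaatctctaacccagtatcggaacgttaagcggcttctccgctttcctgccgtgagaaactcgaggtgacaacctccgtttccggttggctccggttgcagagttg
NDUFS4: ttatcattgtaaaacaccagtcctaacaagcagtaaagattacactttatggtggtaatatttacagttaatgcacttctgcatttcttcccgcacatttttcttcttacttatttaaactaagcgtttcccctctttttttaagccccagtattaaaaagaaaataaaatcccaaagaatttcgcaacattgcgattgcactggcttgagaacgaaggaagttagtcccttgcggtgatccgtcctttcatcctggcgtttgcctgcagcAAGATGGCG
COX6A1: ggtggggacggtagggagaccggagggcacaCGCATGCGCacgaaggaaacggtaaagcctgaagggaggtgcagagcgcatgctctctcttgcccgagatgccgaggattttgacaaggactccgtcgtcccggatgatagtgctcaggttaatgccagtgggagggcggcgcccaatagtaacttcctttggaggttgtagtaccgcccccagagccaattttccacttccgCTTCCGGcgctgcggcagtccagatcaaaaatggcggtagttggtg

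Counted from base 1 of each run, the UQCR10 promoter has an NRF1 motif (GCGCANGCG, either strand) at base 243. COX6A1 has an NRF1 motif at base 32 and a GABPA motif (CCGGAAG, either strand) at base 235. NDUFS4 has a YY1 motif (AAGATGGCG, either strand) at base 272, among the bases after the annotated start, and NDUFB3 has none of the 3. Thus a gene that rose and a gene that fell both carry the NRF1 letters. Matches of the 3 motifs do not overlap one another in these runs.

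A promoter of 300 bases was matched for 77 of the 98 genes. NRF1 letters were in 23 of them (29.9%), against 11.3% of 15335 protein-coding promoters and 15.5% of the 9911 whose gene was tested. GABPA letters were in 20 (26.0%), against 14.5% and 19.7%, and YY1 letters in 8 (10.4%), against 2.81% and 4.14%. The median relative log2 fold change was −0.22 for the 22 tested genes with NRF1 letters and −0.09 for the 48 without. It was −0.15 with GABPA letters (20 genes) and −0.09 without (50), and −0.28 with YY1 letters (8 genes) and −0.10 without (62). Over all tested genes with a promoter, the medians with and without the letters were −0.01 and 0.02 for NRF1, 0.03 and 0.01 for GABPA, and −0.03 and 0.01 for YY1. For GABPA the order over all genes was thus the opposite of that in the chain. A match is a description of letters in a window, and these medians were not tested.

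Complex I takes electrons from NADH through 7 nuclear core subunits that hold flavin and iron-sulfur clusters, and these changed little. NDUFS7, which carries the last iron-sulfur cluster before coenzyme Q, was the 1 core subunit called among 6 tested. Its levels ran from 72.0 to 102 CPM (median 90.3) with scrambled siRNA and from 50.4 to 86.0 CPM (median 73.6) with SUPT4H1 siRNA. The groups overlapped, and the fitted difference was −0.30 on the log2 scale (SE 0.11, edgeR adjusted p = 0.0386). That call ended without any one of scrambled replicates 1, 4, 5 and 6 or SUPT4H1 replicates 2 and 4 (edgeR adjusted p between 0.0590 and 0.0910).

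The other core subunits described here were not called. NDUFV1, which binds the flavin that accepts electrons from NADH, stood at 82.1 to 126 CPM (median 116) and at 60.2 to 130 CPM (median 116), a log2 fold change of −0.03 (SE 0.16). NDUFS1, the largest subunit of that arm, was at 63.4 to 69.7 and 60.7 to 79.9 CPM (0.06, SE 0.08). NDUFS3 and NDUFS8, both of the arm that links to coenzyme Q, had values of −0.03 (SE 0.09) and 0.01 (SE 0.12). NDUFV2, a core subunit with an iron-sulfur cluster, was not tested because it had 130 counts in all 12 libraries. The opposite-strand locus NDUFV2-AS1 had 223 counts and the pseudogene NDUFV2P1 had 265, and AP005263.1 overlaps NDUFV2 on the same strand. Whether reads of NDUFV2 were divided among loci was not tested.

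Accessory subunits surround that core, and 8 of 30 fell (26.7%) while 2 rose (6.67%), beside 19.8% and 20.3% of all genes. NDUFS4, an accessory subunit whose loss causes complex I deficiency, fell the most. It was at 160 to 210 CPM (median 190) with scrambled siRNA and at 87.0 to 135 CPM (median 119) with SUPT4H1 siRNA. All scrambled libraries lay above all SUPT4H1 libraries, 1.64-fold lower with SUPT4H1 siRNA (log2 −0.71, SE 0.10, edgeR adjusted p = 1.26e-05). NDUFS4 spans 53560633 to 53683340 on chromosome 5 (GRCh38, plus strand), and no annotated gene overlaps it.

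The membrane arm holds the proton channels, and 3 of its accessory subunits with large falls were NDUFB4, NDUFC1 and NDUFB8. NDUFB4 was at 284 to 335 CPM (median 325) and at 159 to 264 CPM (median 234), with no overlap (log2 −0.51, SE 0.10, edgeR adjusted p = 0.000261). NDUFC1 was at 173 to 224 CPM (median 188) and at 93.2 to 155 CPM (median 140), again with no overlap (log2 −0.50, SE 0.10, edgeR adjusted p = 0.000489). NDUFB8, a subunit often used as a protein marker of assembled complex I, was at 516 to 629 CPM (median 538) and at 362 to 459 CPM (median 386), with the groups apart (log2 −0.47, SE 0.08, edgeR adjusted p = 5.61e-05). NDUFB4P12, an annotated pseudogene of NDUFB4 with 620 counts, also fell (log2 −0.74, edgeR adjusted p = 0.0128). The other accessory subunits that fell were NDUFA6 (−0.45), NDUFV3 (−0.38), NDUFAB1 (−0.32), which is also the mitochondrial acyl carrier protein, and NDUFA13 (−0.29). HIF1AN and NAA15, which overlap NDUFB8 and NDUFC1 on the opposite strand, had log2 fold changes of 0.16 and 0.24 and were not called. Libraries of NDUFV3 and NDUFAB1 did not overlap between groups, and those of NDUFA6 and NDUFA13 did.

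NDUFB3, a small membrane-arm subunit, had the largest rise of all tested genes of the chain. It ran from 47.1 to 104 CPM (median 88.2) with scrambled siRNA and from 128 to 194 CPM (median 146) with SUPT4H1 siRNA. The groups did not overlap, and the scrambled libraries themselves spread more than 2-fold (log2 fold change 0.90, SE 0.18, edgeR adjusted p = 0.00144). FAM126B overlaps NDUFB3 (chromosome 2, 201071433 to 201085750, plus strand) on the opposite strand and had a log2 fold change of 0.13 (adjusted p = 0.449). NDUFA5, an accessory subunit of the matrix arm, went from 211 to 233 CPM (median 223) to 227 to 302 CPM (median 260), higher by 0.23 on the log2 scale (SE 0.07, edgeR adjusted p = 0.0172). Its groups overlapped, and without SUPT4H1 replicate 6 the edgeR adjusted p was 0.0533. The other 20 accessory subunits were not called, with log2 values from −0.25 for NDUFB7 (SE 0.18) to 0.27 for NDUFA3 (SE 0.19). NDUFA12 came nearest to a call among them (−0.21, edgeR adjusted p = 0.0510). Of these 20, NDUFA7 had at most 3.39 CPM in any library and lies opposite the ribosomal protein gene RPS28 (155451 counts against 326).

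**Figure D2:**
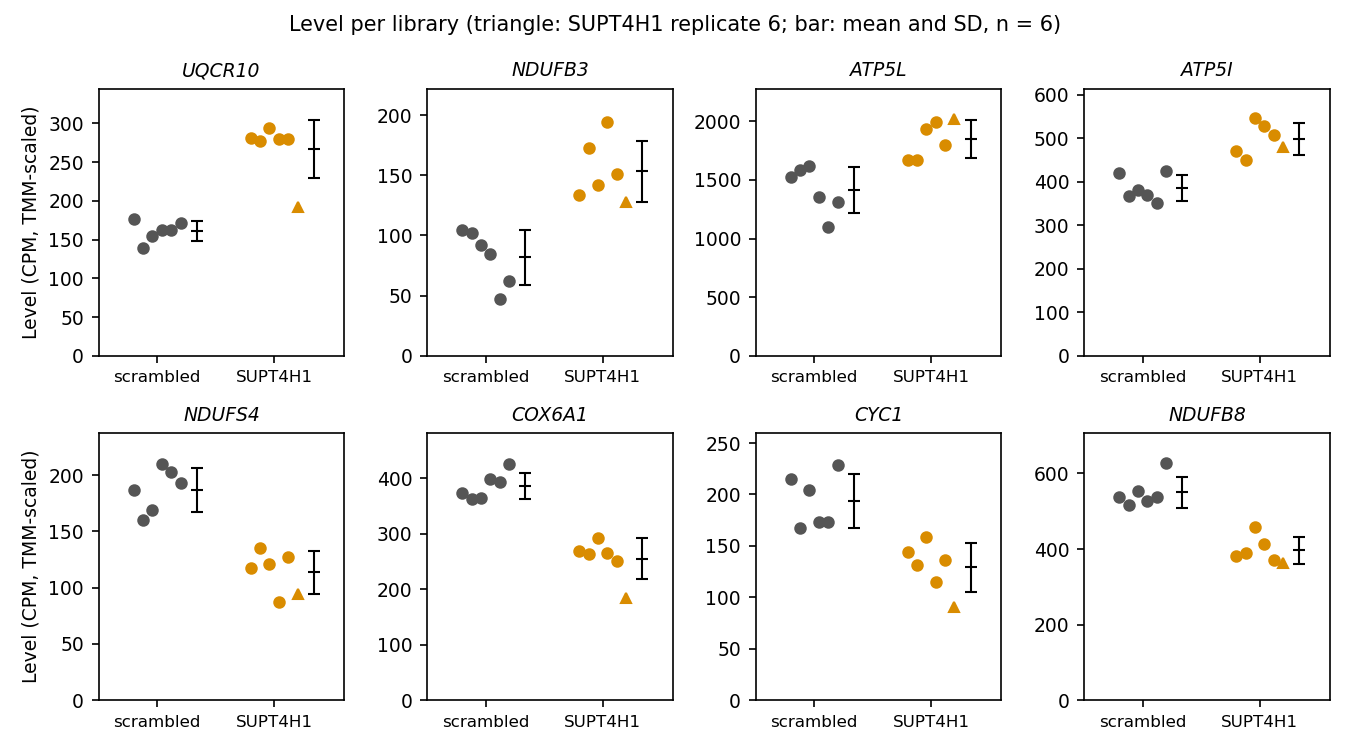
Level in CPM (y axis, TMM-scaled, from 0) of 8 genes in each of 6 scrambled and 6 SUPT4H1 libraries (x axis); bars give the mean and SD and the triangle is SUPT4H1 replicate 6. In each panel the libraries of the groups do not overlap, higher with SUPT4H1 siRNA in the top row and lower in the bottom row.

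The assembly factors of complex I that the rule takes, proteins that build the complex and then leave it, moved in both directions. Of 8, 2 rose and 4 fell, beside 20.3% and 19.8% of all genes. NDUFAF1, part of the assembly complex of the membrane arm, rose from 22.1 to 25.9 CPM (median 23.8) to 27.6 to 37.2 CPM (median 32.1). These ranges were apart (log2 0.42, SE 0.09, edgeR adjusted p = 0.0013). NDUFAF3, which works on the arm that links to coenzyme Q, rose by 0.40 (SE 0.11, edgeR adjusted p = 0.00701), with overlapping libraries. NDUFAF5, a hydroxylase that acts on NDUFS7, was at 21.1 to 27.5 CPM (median 23.0) and at 12.5 to 20.1 CPM (median 16.9), with no overlap (log2 −0.48, SE 0.12, edgeR adjusted p = 0.00338). NDUFAF7, a methyltransferase, fell by 0.45 on the log2 scale (SE 0.13, edgeR adjusted p = 0.00819). NDUFAF2 and ATP5SL each fell by 0.33 (edgeR adjusted p = 0.0143 and 0.0182). NDUFAF4 and NDUFAF6 were not called, with log2 fold changes of −0.13 and 0.06.

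Outside the rule, a list of 9 further complex I assembly genes had 4 rises and 3 falls (median log2 fold change 0.15). Over all genes 20.3% rose and 19.8% fell. FOXRED1 rose by 0.59 (SE 0.12) and ACAD9 by 0.36 (SE 0.07), both needed for building the complex, whereas COA1 fell by 0.64 (SE 0.11).

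Complex II oxidises succinate and is the 1 enzyme shared with the tricarboxylic acid cycle. Its catalytic pair was called as falling and its membrane anchors were not called. The anchor SDHD had a log2 value near that of SDHB (−0.25 against −0.26) with a larger SE, and a difference between pair and anchors was not tested. SDHA, which binds the flavin and succinate, was at 183 to 252 CPM (median 228) with scrambled siRNA and at 128 to 194 CPM (median 168) with SUPT4H1 siRNA. Its groups overlapped slightly (log2 −0.43, SE 0.09, edgeR adjusted p = 0.000983). SDHB, the iron-sulfur subunit, was at 104 to 134 CPM (median 118) and at 75.2 to 112 CPM (median 104), with overlap (log2 −0.26, SE 0.09, edgeR adjusted p = 0.0266). That call ended without scrambled replicate 4 or without SUPT4H1 replicate 4 (edgeR adjusted p between 0.0559 and 0.0686).

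The anchors SDHC and SDHD hold the haem and the coenzyme Q site. SDHC stood at 114 to 152 CPM (median 123) and at 115 to 141 CPM (median 129), a log2 fold change of 0.02 (SE 0.08). SDHD was at 6.09 to 19 CPM (median 12) and at 7.83 to 13.6 CPM (median 10.2), a value of −0.25 with an SE of 0.22. TIMM8B, an import chaperone gene on the opposite strand of SDHD, held 91578 counts and rose by 0.68 (SE 0.11, edgeR adjusted p = 6.26e-05), and whether the counting used strand was not stated in the labels. Summed counts of the 4 subunits made up 0.0446% to 0.0510% of endogenous counts in scrambled libraries and 0.0348% to 0.0437% in SUPT4H1 libraries. These ranges did not overlap.

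The assembly list of complex II had 4 genes, of which 3 fell and 0 rose (median −0.48), beside 19.8% and 20.3% of all genes. SDHAF4, a chaperone of flavin-loaded SDHA, fell by 0.95 on the log2 scale (SE 0.11, edgeR adjusted p = 6.52e-07). SDHAF1 and SDHAF3, which help to insert iron-sulfur clusters into SDHB, fell by 0.62 (SE 0.11) and 0.33 (SE 0.12). In the tricarboxylic acid cycle as listed, 1 of 14 genes rose and 2 fell (median −0.07), among them DLD (−0.38, SE 0.08) and SUCLG2 (0.70, SE 0.20).

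In complex III, both redox subunits made in the nucleus fell and 1 small subunit rose. CYC1, the cytochrome c1 subunit that hands electrons to cytochrome c, was at 167 to 229 CPM (median 189) with scrambled siRNA and at 90.3 to 158 CPM (median 134) with SUPT4H1 siRNA. The groups did not overlap, and levels fell by 0.58 on the log2 scale (SE 0.11, edgeR adjusted p = 0.00046). UQCRFS1, the Rieske iron-sulfur protein, was at 154 to 185 CPM (median 176) and at 86.7 to 163 CPM (median 143), with overlap (log2 −0.33, SE 0.11, edgeR adjusted p = 0.0177). With RNA integrity as a covariate its edgeR adjusted p was 0.0665.

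The core proteins of complex III form its matrix part and carry no redox centre. UQCRC1 was at 79.0 to 90.4 CPM (median 88.5) and at 51.1 to 77.3 CPM (median 70.6), and its groups were apart (log2 −0.33, SE 0.09, edgeR adjusted p = 0.00552). UQCRC2 was at 219 to 251 CPM (median 240) and at 159 to 226 CPM (median 215), with overlap (log2 −0.21, SE 0.08, edgeR adjusted p = 0.0456). The UQCRC2 call ended without any one of scrambled replicates 1, 3, 4 and 6 or SUPT4H1 replicates 1, 4 and 5 (edgeR adjusted p between 0.0557 and 0.0907).

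UQCR10, a small subunit next to the Rieske protein and cytochrome c1, rose. It ran from 140 to 177 CPM (median 162) with scrambled siRNA and from 192 to 294 CPM (median 280) with SUPT4H1 siRNA. Of the SUPT4H1 libraries, 5 lay between 278 and 294 CPM and replicate 6 at 192 CPM, still above all scrambled libraries. The rise was 1.66-fold (log2 0.73, SE 0.09, edgeR adjusted p = 3.04e-06). UQCR10 (chromosome 22, 29767369 to 29770413, plus strand) has no annotated overlap with another gene.

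UQCRH, the hinge protein that links cytochrome c1 to cytochrome c, and its near copy UQCRHL were called in opposite directions. UQCRH went from 1401 to 1624 CPM (median 1468) to 1038 to 1411 CPM (median 1275), and its groups overlapped (log2 −0.25, SE 0.08, edgeR adjusted p = 0.017). UQCRHL was at 7.97 to 11.8 CPM (median 10.5) and at 10.8 to 15.9 CPM (median 13.2), a value of 0.32 (SE 0.13, edgeR adjusted p = 0.0493). The UQCRHL call ended in 8 of 12 omissions of 1 library, those of scrambled replicates 3 to 6 and SUPT4H1 replicates 1, 3, 4 and 6 (edgeR adjusted p between 0.0622 and 0.141). Near-identical copies can exchange reads, so the UQCRHL values are uncertain. UQCRB, UQCRQ and UQCR11, further small subunits, were not called (−0.11, 0.04 and −0.10).

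The assembly list of complex III had 2 rises and 3 falls among 6 genes (median −0.26), beside 20.3% and 19.8% of all genes. TTC19, which clears Rieske protein fragments from the finished complex, rose by 1.05 (SE 0.07, edgeR adjusted p = 5.4e-10). UQCC1 and UQCC2, which bind newly made cytochrome b, fell by 0.58 (SE 0.09) and 0.63 (SE 0.11), and UQCC3 fell by 0.48 (SE 0.09).

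Complex IV reduces oxygen to water at centres held by subunits made in the mitochondrion, and its nuclear subunits surround them. Among 11 tested nuclear subunits 4 fell, 0 rose and 10 had values below 0, beside 19.8%, 20.3% and 49.8% of all genes tested. COX6A1, the widely expressed form of subunit 6A, fell the most, from 362 to 425 CPM (median 382) to 184 to 293 CPM (median 265). Every scrambled library lay above every SUPT4H1 library (log2 −0.60, SE 0.09, edgeR adjusted p = 2.62e-05), 1.52-fold lower. COX6A1 lies on chromosome 12 from 120438090 to 120440742 (plus strand). No gene is annotated on the opposite strand, and AL021546.1 overlaps it on the same strand.

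Among the subunits that join the complex early, COX5A fell and COX4I1 and COX5B were not called. COX5A was at 530 to 640 CPM (median 621) and at 387 to 540 CPM (median 513), with a narrow overlap (log2 −0.30, SE 0.08, edgeR adjusted p = 0.00706). COX4I1, which with COX5A starts the assembly around MT-CO1, was at 491 to 737 CPM (median 629) and at 383 to 653 CPM (median 542), a value of −0.20 (SE 0.11, edgeR adjusted p = 0.147). COX5B, which binds zinc, was at 249 to 351 CPM (median 297) and at 180 to 303 CPM (median 281), a value of −0.19 (SE 0.11, edgeR adjusted p = 0.166). Without scrambled replicate 2, COX4I1 was called at an edgeR adjusted p of 0.0390.

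Single-span subunits COX8A and COX7B fell by 0.33 (SE 0.10) and 0.31 (SE 0.12) on the log2 scale. COX8A was at 511 to 609 CPM (median 573) and at 301 to 529 CPM (median 466), with overlap (edgeR adjusted p = 0.0132). COX7B was at 513 to 699 CPM (median 600) and at 305 to 584 CPM (median 517), with overlap (edgeR adjusted p = 0.0436). The COX7B call ended without any one of scrambled replicates 1, 3, 4, 5 and 6 or SUPT4H1 replicates 4 and 5 (edgeR adjusted p between 0.0558 and 0.0989). NDUFA4, COX6B1, COX6C, COX7A2 and COX7C were not called, with values of 0.04, −0.17, −0.13, −0.12 and −0.02.

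Complex IV has tissue isoforms, and HEK293 cells counted mainly the ubiquitous ones. COX4I2 (lung and oxygen response), COX6A2 (heart and skeletal muscle) and COX7B2 had 0 counts among 149857610 endogenous counts, which allows a level of up to 0.0200 CPM over the 12 libraries (3 counts, counting error only). COX7A1 of muscle had 8 counts, COX6B2 of testis 47, COX8C 81 and NDUFA4L2, the hypoxia-induced relative of NDUFA4, 16, and none of these passed the filter. COX7A2L, which helps complexes III and IV to join into supercomplexes, was at 69.1 to 99.0 and at 78.5 to 92.2 CPM (log2 −0.02, SE 0.09). The read-through loci NDUFC2-KCTD14 and ATP5J2-PTCD1 had 0 and 3 counts.

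Of 21 complex IV assembly genes tested outside the rule (22 listed), 4 rose and 6 fell (median −0.06), beside 20.3% and 19.8% of all genes. SCO1, a copper chaperone, rose by 0.31 (SE 0.08), while TACO1, which aids translation of MT-CO1, fell by 0.47 (SE 0.10). PET117 fell by 0.51 (SE 0.14).

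ATP synthase is a rotary enzyme, with a catalytic head in the matrix, a rotating ring and central stalk, and a peripheral stalk that holds the head still. Its stator and membrane subunits that the rule takes (peripheral stalk and small membrane proteins) held 3 rises and 0 falls among 7. None of the 7 values was below 0 (median 0.10). The head and central stalk held 0 rises and 1 fall among 5 (median −0.19). Over all genes tested 20.3% rose, 19.8% fell and 49.8% had values below 0. The difference between these portions was not tested.

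Within the head, ATP5A1 (alpha subunit) and ATP5B (catalytic beta subunit) were not called. ATP5A1 was at 431 to 520 CPM (median 463) and at 400.2 to 539 CPM (median 499), a log2 fold change of 0.06 (SE 0.08). ATP5B was at 628 to 873 CPM (median 793) and at 435 to 741 CPM (median 688), a value of −0.22 (SE 0.11, edgeR adjusted p = 0.117). Without scrambled replicate 2, ATP5B was called at an edgeR adjusted p of 0.0364.

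ATP5C1, the gamma subunit that turns inside the head, fell. It was at 183 to 211 CPM (median 196) and at 111 to 170 CPM (median 160), with no overlap between groups (log2 −0.36, SE 0.09, edgeR adjusted p = 0.00276). ATP5D and ATP5E, the other central stalk subunits, had values of −0.17 (SE 0.14) and −0.19 (SE 0.09) and were not called.

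The ring of subunit c is encoded by 3 genes that give the same mature protein, and 1 of them rose. ATP5G1 was at 388 to 507 CPM (median 418) with scrambled siRNA and at 439 to 616 CPM (median 544) with SUPT4H1 siRNA, with overlap (log2 0.33, SE 0.09, edgeR adjusted p = 0.00469). ATP5G2 was at 528 to 701 CPM (median 602) and at 531 to 712 CPM (median 625), a value of 0.04 (SE 0.09). ATP5G3 was at 636 to 807 CPM (median 743) and at 707 to 779 CPM (median 742), a value of 0.02 (SE 0.08). Differences between the 3 genes in their response were not tested.

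Among the membrane proteins, ATP5L and ATP5I, subunits g and e, which help enzymes to pair along cristae, rose. ATP5L ran from 1102 to 1618 CPM (median 1437) with scrambled siRNA and from 1665 to 2022 CPM (median 1866) with SUPT4H1 siRNA. Its groups did not overlap (log2 0.38, SE 0.09, edgeR adjusted p = 0.00271). ATP5I ran from 352 to 425 CPM (median 375) and from 450 to 548 CPM (median 494), again without overlap (log2 0.37, SE 0.08, edgeR adjusted p = 0.000582). MYL5, on the opposite strand over ATP5I, had 1171 counts and rose by 1.46 (edgeR adjusted p = 2.42e-07), and reads of both cannot be told apart if strand was not used.

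ATP5O, the subunit that ties the peripheral stalk to the head, rose from 930 to 1103 CPM (median 1005) to 1081 to 1378 CPM (median 1218), with slight overlap (log2 0.27, SE 0.08, edgeR adjusted p = 0.00707). The stalk subunits ATP5F1, ATP5H and ATP5J and the membrane subunit ATP5J2 were not called, with values of 0.02, 0.01, 0.10 and 0.00. ATP5L2, a near copy of ATP5L, was at 8.24 to 11.3 CPM (median 9.82) and at 10.5 to 13.5 CPM (median 13.1), and rose by 0.38 (SE 0.12, edgeR adjusted p = 0.0134). Reads may pass between ATP5L2 and ATP5L, so its values are uncertain. ATP5EP2, an intronless copy of ATP5E, was not called (0.03), nor was ATP5S, coupling factor B (−0.11). A list of 7 further complex V genes outside the rule held assembly and regulation genes and the small membrane proteins USMG5 and C14orf2. In it 0 rose and 0 fell by edgeR or DESeq2 (median −0.03), beside 20.3% and 19.8% of all genes by edgeR. At an unadjusted p under 0.05 edgeR had 0 rises and 2 falls there. USMG5 and C14orf2 had values of 0.05 and 0.11.

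Summed per library, complex V took a larger share of endogenous counts with SUPT4H1 siRNA. Its subunits made up 0.755% to 0.803% in scrambled libraries and 0.823% to 0.923% in SUPT4H1 libraries, without overlap. Complexes I, III and IV overlapped between groups, at 0.901% to 1.07% and 0.819% to 1.01% for I, 0.413% to 0.475% and 0.342% to 0.463% for III, and 0.677% to 0.770% and 0.553% to 0.722% for IV. SUPT4H1 replicate 6 was the lowest of its group in each of the 5 complexes, including V at 0.823%. The chain as a whole took 2.86% to 3.21% and 2.62% to 3.19%. Such sums are led by the most abundant genes, among them ATP5L and ATP5O.

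**Figure D3:**
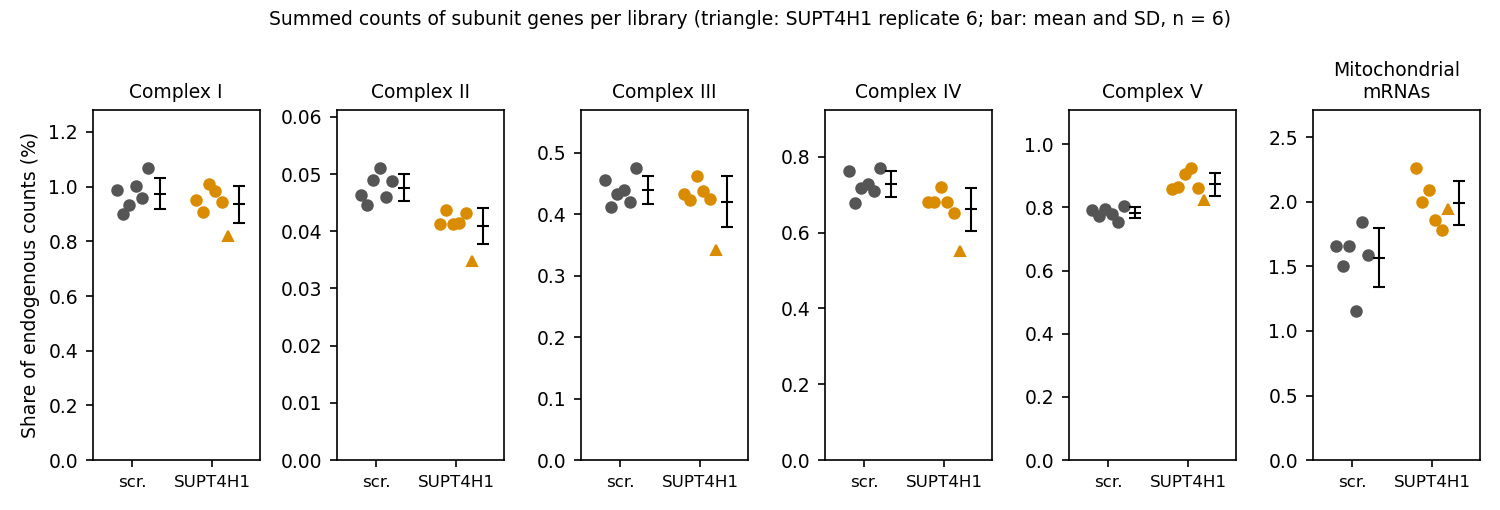
Share of endogenous counts in percent (y axis, from 0) of the subunit genes of each complex and of the mitochondrial mRNAs in each library (x axis, 6 scrambled and 6 SUPT4H1); bars give the mean and SD and the triangle is SUPT4H1 replicate 6. Groups are apart for complex II, lower at 0.0348% to 0.0437%, and for complex V, higher at 0.823% to 0.923%.

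Most genes of mitochondrial DNA for subunits of the chain rose. Of its 13 protein-coding genes, 9 rose and 0 fell (20.3% and 19.8% of all genes), with a median log2 fold change of 0.47. Among 75 tested nuclear subunits there were 7 rises and 21 falls (median −0.10). In complex I, MT-ND5 rose by 0.87 (SE 0.10, edgeR adjusted p = 8.5e-07) and MT-ND6 by 1.12 (SE 0.19), while MT-ND3 and MT-ND4L were not called (0.03 and 0.07). In complex IV, MT-CO1 rose by 0.60 (SE 0.11), while MT-CO2 and MT-CO3 were not called (0.06 and 0.15). MT-CYB of complex III rose by 0.33 (SE 0.11) and MT-ATP6 of complex V by 0.31 (SE 0.10), and MT-ATP8 had the least certain rise (1.40, SE 0.50). Their summed share was 1.15% to 1.84% with scrambled siRNA and 1.78% to 2.26% with SUPT4H1 siRNA, which overlap. Spike-in-scaled, 0 of the 13 rose and 3 fell (0.304% and 59.0% of all genes), with a median of −0.36. The difference between the 2 genomes was not tested.

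**Figure D4:**
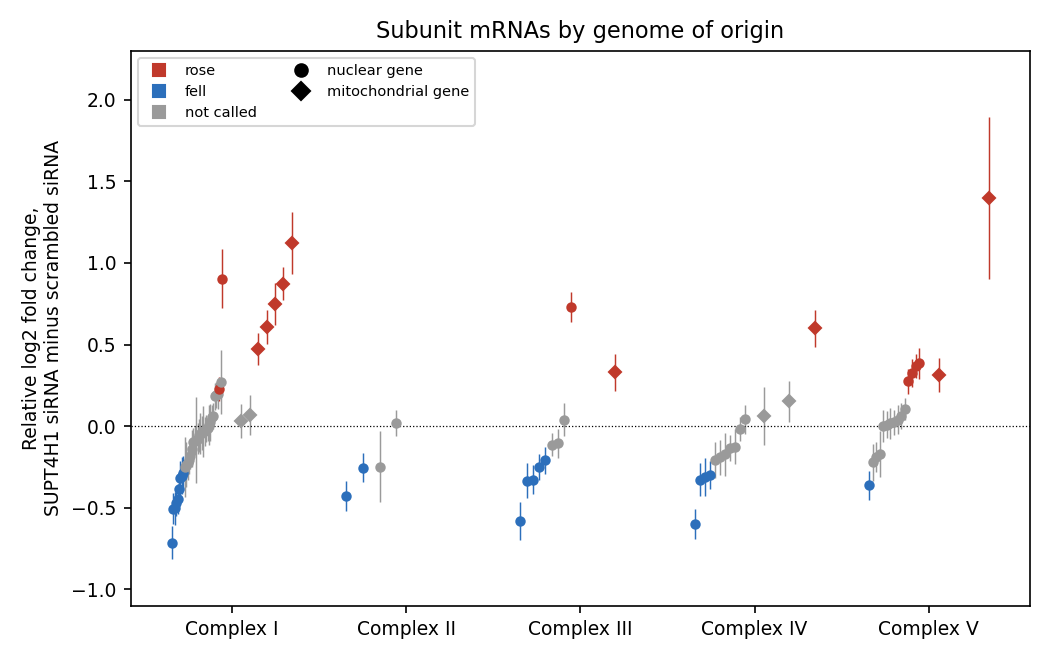
Relative log2 fold change with its standard error (y axis, SUPT4H1 siRNA minus scrambled siRNA) of tested nuclear subunits (circles) and mitochondrially encoded subunits (diamonds) by complex (x axis), coloured by call. Of the 13 mitochondrial genes 0 fell. Nuclear falls were 9 of 36, 5 of 9, 4 of 11 and 1 of 15 in complexes I, III, IV and V, beside 19.8% of all genes tested. The sets differ in size, and the genomes were not compared by a test.

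Genes that serve the chain as a whole, from lists outside the rule, were called in both directions, as were 20.3% (rises) and 19.8% (falls) of all genes. Of 15 genes of cytochrome c and coenzyme Q synthesis, 5 rose and 3 fell (median −0.02), among them HCCS, which attaches haem to cytochrome c and c1 (0.59, SE 0.08), and COQ10A, a coenzyme Q binding protein (−0.65, SE 0.09). Of 13 transcription regulators of respiratory genes, 2 rose and 1 fell (median 0.12). PPARGC1A, a coactivator of mitochondrial genes, rose by 0.80 (SE 0.23). Its level was low, with means of 1.96 CPM (scrambled) and 3.44 CPM (SUPT4H1 siRNA), and its libraries overlapped between groups. TFB1M, a methyltransferase of mitochondrial ribosomal RNA, fell by 0.50 (SE 0.10). Of 10 genes of supercomplexes and cristae, 1 rose (OPA1, which shapes cristae, 0.64, SE 0.11) and 1 fell (CHCHD6, −0.49, SE 0.12). In mitochondrial import, 7 of 22 tested genes rose and 7 fell (median −0.05; 24 listed).

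Scaled to the subgroup B ERCC standards added to each lysate, most genes of the chain fell, as did most genes tested. Of the 88 genes, 73 fell (83.0%) and 0 rose by edgeR (0 also unadjusted and by DESeq2), while over all genes tested 59.0% fell and 0.304% rose. The median spike-in-scaled log2 fold change was −0.92 for the chain and −0.82 for all genes, and values ran from −1.53 to 0.08. The labels give 1000000 cells for every sample, and the scale itself cannot tell fewer cells from less RNA per cell. By complex the medians were −0.91, −1.07, −1.02, −1.01 and −0.78 for subunits of complexes I to V. With standards of ERCC subgroup C in place of subgroup B, 14 of the 88 fell, beside 16.1% of all genes tested, and the median of the chain was −0.62. Most genes of the chain were thus not called under that choice. Mix 1 went to scrambled and mix 2 to SUPT4H1 samples, so mix and siRNA cannot be separated. With subgroup B, falls numbered 49 without scrambled replicate 4 (40.3% of all genes) and 87 without SUPT4H1 replicate 5 (88.0% of all genes).

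On that scale NDUFS4 fell by 1.53 (SE 0.32, edgeR adjusted p = 5.94e-05) and COX6A1 fell by 1.44 (SE 0.32, edgeR adjusted p = 0.00013). CYC1 fell by 1.39 and SDHA by 1.25 (SE 0.32 each). The relative rises had spike-in-scaled values near or below 0 that were not called, 0.08 for NDUFB3 (SE 0.31), −0.09 for UQCR10 (SE 0.31), −0.44 for ATP5L and −0.45 for ATP5I (SE 0.31 each). Both scales rest on the same counts, and each library is multiplied by another factor on each.

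Structure of the genes was compared with their response as a description. Chain genes were short, with a median gene length of 12578 bases against 29968 for all genes tested, 4 exons against 9, and a 3′ untranslated region of 246 bases against 1137. Over the 88 tested genes, Spearman's rho with the relative log2 fold change was 0.01 for level and −0.11 for gene length. Over the 87 with an annotated transcript model it was 0.02 for the length of the 3′ untranslated region and −0.05 for the number of exons. The values come from the same 12 libraries, and genes are not independent replicates.

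Annotated overlap with a gene on the opposite strand was common, in 48 of the 98 genes. Of 43 such genes tested 6 rose and 7 fell (14% and 16.3%, median −0.03), and of 45 without such overlap 5 rose and 18 fell (11.1% and 40.0%, median −0.17). Over all genes 20.3% rose and 19.8% fell. Overlaps on the same strand, as for COX6A1, NDUFB8 (AL133352.1), NDUFC1 (MGARP) and SDHD (AP002884.3), were not counted here. The part of reads from overlapping genes on either strand in these values was not tested. Pseudogenes named after 45 of the genes were annotated at 155 loci, with a median of 0.0306% of the parent's counts, and 1 exceeded 10% of its parent, that of NDUFV2.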

How the data were processed

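RNA from 12 transfections (200 ng each) was made into QuantSeq 3′ forward libraries, which tag the 3′ end of polyadenylated RNA, per the labels' protocols. ERCC standards diluted 1:100 were added at 2 µl per lysate, mix 1 to scrambled and mix 2 to SUPT4H1 samples. The authors deposited raw whole-number counts per gene for all libraries in 1 table. FastQC 0.11.5, STAR, MultiQC, R 3.4.3 and build GRCh38.p10 are named in the submitters' processing notes. Counter and strand setting: not given in the sources used here. A 3′ library gives about 1 tag per molecule whatever its length, so CPM were not divided by length.

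Counts were fitted with edgeR 4.0.16 (quasi-likelihood, robust, R 4.3.3) over all 12 libraries, with TMM scaling over endogenous genes and the default filterByExpr filter (13820 genes). Calls have a Benjamini-Hochberg adjusted p under 0.05 over those genes. CPM are TMM-scaled. The spike-in scale used the summed counts of 23 ERCC subgroup B standards, assigned from general knowledge of the product. Positions are from GENCODE release 29 (GRCh38), where all 98 genes were found, and promoters from RefSeq.

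Genes, lists and tests were chosen with earlier results of these data known. Named genes are the nuclear core subunits of complex I, SDHA to SDHD, UQCRC1, UQCRC2, UQCRFS1, CYC1, COX4I1, COX5A, COX5B, ATP5A1 and ATP5B, and isoform sets whatever their values. To these were added up to 4 rises and 4 falls per complex and up to 3 called genes per other list. Other genes named were added to account for the genes of the set, and values of some genes are not reported here. All 30 pairs of libraries within a group differed beyond sampling noise (chi-square over its degrees of freedom 4.48 to 35.0). Alternatives were DESeq2 1.42.0, limma-voom (limma 3.58.1), other scalings and filters, a 1.5-fold minimum, a covariate for RNA integrity, blocking on replicate number, other standards and omission of each library. The relative fit was tested on simulated counts of 13820 genes. It called 45 of 67 genes set to change 1.5-fold (67.2%), 55 of 67 set to 2-fold (82.1%) and 65 of 66 set to 4-fold (98.5%). False calls numbered 9. The 200 changed genes were drawn from all genes tested and made up a smaller share than was called in the data. Chain genes are more abundant than most, so these rates are not theirs.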

Additional observations from a re-analysis of the deposited data

Results flagged for a closer look

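Of 112 sets of 6 libraries examined, 15 had a sample far from the others by Dixon's test, where chance gives 5.6. SUPT4H1 replicate 6 was that sample in 10 of them. It was low for UQCRC1 (51.1 CPM, others 67.8 to 77.3), UQCRFS1 (86.7, others 140 to 163) and UQCR10 (192, others 278 to 294), all of complex III. For complex IV it was low in COX5A (387, others 485 to 540), COX5B (180, others 264 to 303) and COX8A (301, others 463 to 529), and for complex V in ATP5B (435, others 672 to 741). It was high for the assembly factor NDUFAF2 (62.3 CPM, others 36.4 to 44.2). Its share of counts was low for complex II (0.0348%, others 0.0412% to 0.0437%) and complex III (0.342%, others 0.424% to 0.463%). With UQCR10 the low library lay on the scrambled side, and with the other subunits on the far side.

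Among scrambled libraries, replicate 3 was high for SDHC (152 CPM, others 114 to 124). Replicate 2 was low for COX5A (530, others 605 to 640) and NDUFB4 (284, others 322 to 335). Replicate 6 was high for NDUFB8 (629, others 516 to 554) and NDUFAF5 (27.5, others 21.1 to 23.3).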

How the results depend on the processing

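The 11 rises stayed between 10 and 14 and the 25 falls between 20 and 30 under DESeq2, limma-voom, the other scalings and filters, the block and each omission of 1 library. The exceptions were RNA integrity as a covariate (15 falls) and a 1.5-fold minimum (0 rises, 0 falls). Omitting 1 library gave 10 to 11 rises, 20 to 30 falls and medians of −0.14 to −0.07 for all tested genes of the chain. The spike-in-scaled falls were 49 to 87 on such omission and 14 with subgroup C. Replicate numbers did not pair the libraries (correlations of same-numbered deviations −0.315 to 0.063), and with the replicate number as a block 10 genes rose (11.4%) and 20 fell (22.7%), beside 17.6% and 17.2% of all genes.

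Signs reversed in log2 values near 0 that were not called with all libraries. With upper quartile scaling NDUFS8 was −0.021, SDHC −0.0066 and ATP5G3 −0.00076. With total counts NDUFS3 was 0.0074, NDUFV1 0.00042 and COX7A2L 0.019, and with RNA integrity NDUFV1 was 0.0081. Omission of 1 library gave NDUFS3 −0.095 to 0.019, NDUFS8 −0.079 to 0.075, NDUFV1 −0.13 to 0.062, COX7A2L −0.074 to 0.026, SDHC −0.014 to 0.077, ATP5G2 −0.0093 to 0.081, ATP5G3 −0.015 to 0.049, NDUFA4 −0.0032 to 0.084 and NDUFS1 −0.014 to 0.091. Spike-in-scaled, UQCR10 was 0.23 with subgroup C and −0.40 to 0.067 on omission, and NDUFB3 was −0.18 to 0.24. With RNA integrity as a covariate the calls of NDUFS7, SDHB, UQCRC2, UQCRFS1, UQCRH, UQCRHL, COX7B, COX8A, NDUFA5 and ATP5SL ended (edgeR adjusted p 0.0539 to 0.169). The replicate block ended NDUFS7 (0.0721), UQCRC2 (0.0706), COX7B (0.0808) and UQCRHL (0.0769). Scaling by total counts ended NDUFS7 (0.0563) and UQCRC2 (0.0691), and testing without a filter ended UQCRC2 (0.0693) and UQCRHL (0.0935). UQCRHL was also not called by limma-voom (adjusted p 0.0600) or with upper quartile scaling (0.0659). The causes were not tested. Few counts limit the precision for genes near the filter.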
